A study of Triticum aestivum with 6 samples.

Results

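In developing bread wheat grain, 40 of 221925 transcript sequences were abundant in aleurone and starchy endosperm alike at 14 days post anthesis (DPA) and had been at least 8-fold lower at 6 DPA in each tissue. They were chosen by their measured levels in the 6 and 14 DPA libraries, as RPKM, which divides the reads of a sequence by its length and by the total of its library. A member needed at least 20 RPKM in each tissue at 14 DPA, 14 DPA levels within 4-fold of each other, and a 6 DPA level of no more than an eighth of the 14 DPA level in each tissue. The 9 DPA libraries played no part in the choice. The path that each tissue took between the outer stages is therefore the measurement on which the results below turn.

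The 6 libraries came from the cultivar Banks: microdissected aleurone at 6, 9 and 14 DPA, and microdissected starchy endosperm at the same stages. Each was a single preparation pooling at least 5 seeds from 3 spikes of 3 plants, so no tissue and stage had a second library. Library totals lay between 4104682 and 37911327 reads, and the pair of 9 DPA libraries was the shallow one, with 4549034 reads in aleurone and 4104682 in starchy endosperm. A floor of 3 reads, used wherever a sequence had fewer, stood for 0.659 RPM (reads scaled to a common library total) in 9 DPA aleurone and for 0.0791 to 0.731 RPM across the 6 libraries. All intervals given are exact 95% limits that cover counting error alone.

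Aleurone and starchy endosperm both descend from the fertilised central cell of the ovule. The starchy endosperm fills with starch and storage proteins during grain filling, and its cells do not survive to germination. The aleurone stays alive, stores oil, protein and minerals, and secretes starch-degrading enzymes when the grain germinates. The files pair no identifier with a gene name or function, and 0 identifiers matched the RefSeq gene table of wheat. No role is therefore given to any member, no nucleotide sequence is printed, and the tissue labels were not checked against marker genes. For the same reason only a few identifiers are named. In bulk tissue, fewer cells of a type and less RNA per cell cannot be told apart.

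The choice itself left few sequences. Of 4196 sequences with at least 20 RPKM in both tissues at 14 DPA and levels within 4-fold, 40 had risen 8-fold in both tissues, 226 in aleurone only, 41 in starchy endosperm only and 3889 in neither. The mirrored rule, abundant and alike at 6 DPA and 8-fold lower at 14 DPA in both, found 100. Near the limits, 8 members lay within 10% of a limit of the rule, and 9 other sequences missed by no more than 10%. The closest inside was TC390790, whose 14 DPA aleurone level was 3.92 times that of starchy endosperm. The closest outside was TC448582, at 4.003 times.

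At 14 DPA the 40 members ranged from 22.5 to 829.5 RPKM in aleurone, with a median of 88.2, and from 21.6 to 734.3 RPKM in starchy endosperm, with a median of 54.7. At 6 DPA their medians were 0.087 RPKM (aleurone) and 2.0 RPKM (starchy endosperm). Of all aleurone reads, the 40 together held 0.00686% at 6 DPA, 0.00961% at 9 DPA and 0.504% at 14 DPA. Of all starchy endosperm reads they held 0.0158%, then 0.0768%, then 0.400%. As a group they thus remained near their 6 DPA share in 9 DPA aleurone, while their share in starchy endosperm had already grown. These shares of 6 and 14 DPA describe the choice and are no test of it.

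**Figure D1:**
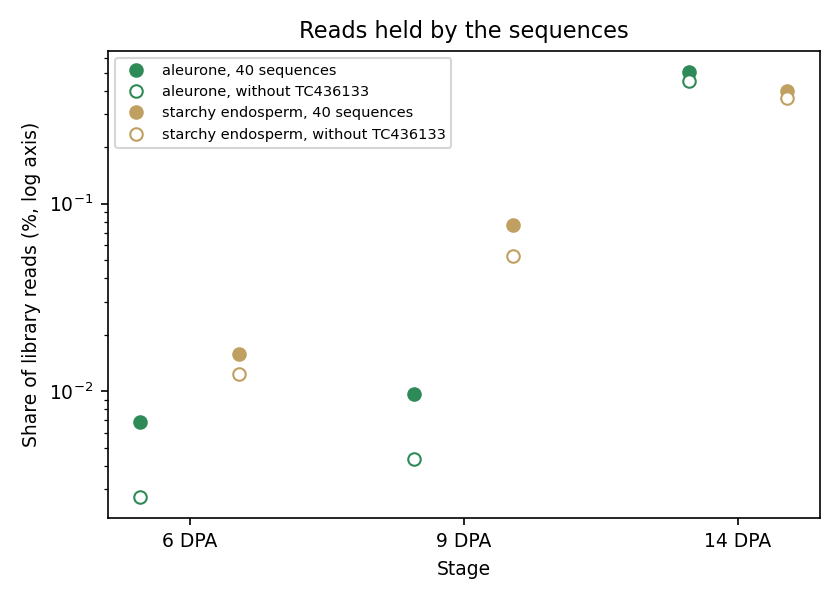
Share of library reads (percent, log axis) held by the 40 sequences at 6, 9 and 14 DPA, with aleurone left of starchy endosperm at each stage, for all 40 (filled points) and without TC436133 (open points), the member with the most reads at 9 DPA. Each point is 1 library; aleurone moves little between 6 and 9 DPA, 0.00686% and 0.00961%, and reaches 0.504% at 14 DPA.

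The most abundant member by the geometric mean of both tissues at 14 DPA was TC436133, 743 bases long. Its aleurone level was 55.5, 70.4 and 684.3 RPKM at 6, 9 and 14 DPA. In starchy endosperm it was 46.1, 326.6 and 451.5 RPKM at the same stages. The tissues were close at 6 DPA, stood apart at 9 DPA and were close again at 14 DPA. At 9 DPA its aleurone to starchy endosperm ratio was 0.216 (95% limits 0.186 to 0.249). Aleurone gained 9.72-fold between 9 and 14 DPA (8.55 to 11.1), where starchy endosperm gained 1.38-fold (1.30 to 1.48). Unique reads made up 96.02% of its 14 DPA aleurone reads and 95.02% of its 14 DPA starchy endosperm reads, so few were shared with near-identical sequences. TC436133 supplied 54.5% of all member reads in 9 DPA aleurone and 31.6% in 9 DPA starchy endosperm. Without it, the share of 9 DPA reads was 0.00437% (aleurone) and 0.0525% (starchy endosperm).

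The highest aleurone level of any member was that of TC382259, 784 bases long, second by the same geometric mean. Aleurone had no reads of it at 6 DPA, 2 reads (0.561 RPKM) at 9 DPA and 829.5 RPKM at 14 DPA. Starchy endosperm had 22.7, 77.7 and 216.4 RPKM. By RPKM, the starchy endosperm level climbed by less than 4-fold at each step, 3.42-fold (2.94 to 3.98) and then 2.79-fold (2.46 to 3.17). Nearly the whole aleurone level was gained after 9 DPA. TC394211, 821 bases long, had a like course in aleurone, with 0 aleurone reads at 6 and 9 DPA and 606.7 RPKM at 14 DPA, against 20.8, 32.05 and 214.7 RPKM in starchy endosperm. Its 14 DPA aleurone level was at least 755-fold above 9 DPA with the 0 reads set at 3.

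At 9 DPA the members were lower in aleurone than in starchy endosperm. RPKM was lower in aleurone for 37 of the 40, higher for 1 and equal for 2 that had no reads in either. Over all 40, with counts under 3 set at 3 and no minimum of reads, 24 were at least 4-fold lower in aleurone and 0 at least 4-fold higher, against 3.55% lower of all 221925 sequences, most of which had few reads. A minimum of 20 reads in the higher library left 26 members, of which 23 were at least 4-fold lower in aleurone. Of these 26, 22 passed only through starchy endosperm, the library in which they were high, so most of them had to differ and the 23 is no support for a difference. Across all 39388 sequences with that many reads, 14.4% were at least 4-fold lower in aleurone and 22.2% at least 4-fold higher. The other 14 members had under 20 reads in each 9 DPA library, too few for most of them to be read either way. The comparison sets 1 library against 1 library and carries no p-value.

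The member farthest apart at 9 DPA was TC439225, 1188 bases long. Aleurone had 0 reads at 6 and 9 DPA and 211.1 RPKM at 14 DPA. Starchy endosperm had 0.413, 53.5 and 734.3 RPKM, the highest starchy endosperm level of any member. At 9 DPA it was at least 96.4-fold lower in aleurone, with the 0 aleurone reads set at 3 against 261 reads in starchy endosperm. Of its reads at 14 DPA, 17.1% in aleurone and 32.9% in starchy endosperm were unique, so its level is shared with near-identical sequences. At the other end stood TC372834, 1123 bases long and the single member with the higher 9 DPA level in aleurone. It had 4.36, 14.7 and 56.8 RPKM in aleurone and 4.83, 9.76 and 40.9 RPKM in starchy endosperm. Its 9 DPA ratio of aleurone to starchy endosperm, 1.5 (1.03 to 2.23), was small, and both tissues climbed by similar steps. On unique reads it had 6 in each 9 DPA library.

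**Figure D2:**
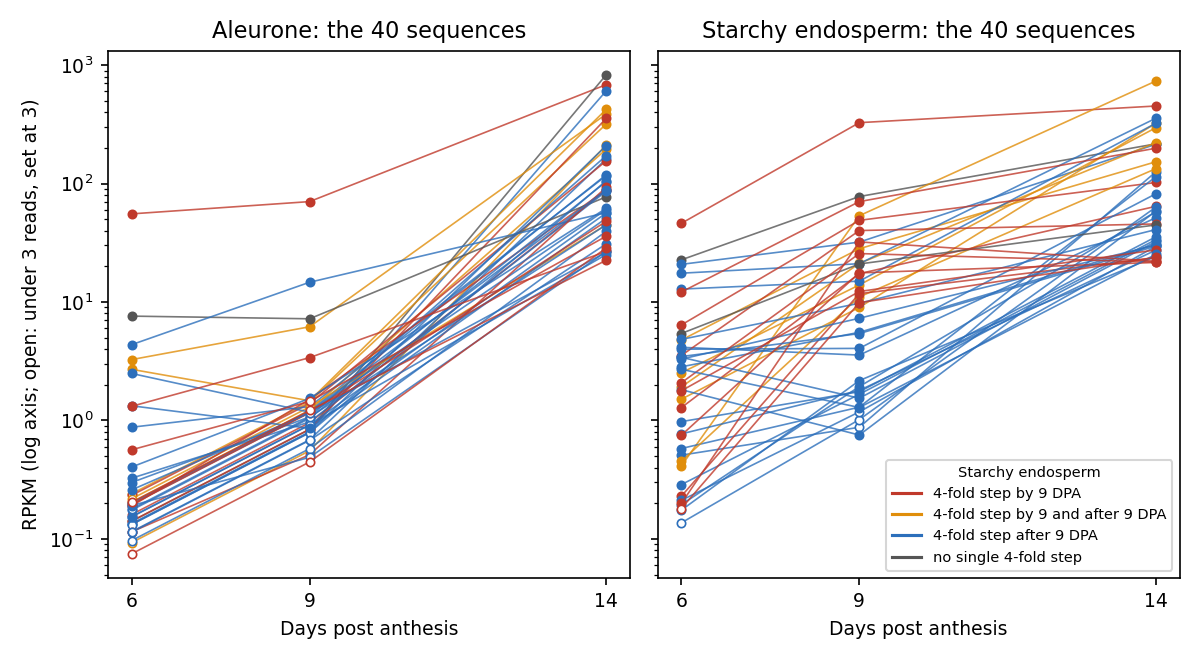
RPKM (log axis) of the 40 sequences at 6, 9 and 14 DPA in aleurone (left) and starchy endosperm (right), 1 line per sequence and 1 library per point, coloured by when the starchy endosperm level rose at least 4-fold; open points had under 3 reads and are set at 3, so open points at 9 DPA sit higher only because those libraries are shallow. Members with under 20 reads in both 6 and 9 DPA starchy endosperm are coloured as rising after 9 DPA. Aleurone lines stay low to 9 DPA, where 20 of 40 had 0 reads, and starchy endosperm lines fan out at 9 DPA between 0 and 326.6 RPKM.

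In aleurone the climb came after 9 DPA for nearly every member. At least 4-fold higher at 14 than at 9 DPA were 39 of the 40, where 10.6% of all 73884 sequences considered were. The exception was TC372834, at 3.87-fold (3.07 to 4.94). The rule favoured such a step by choosing high 14 DPA and low 6 DPA aleurone levels. Of the 226 sequences alike at 14 DPA that rose 8-fold in aleurone only, 90.7% made the same step, so it is not particular to the members. Between 6 and 9 DPA, 8 members had enough reads in aleurone, 4 of them only through the deeper 6 DPA library. None (0) of the 8 rose 4-fold, against 2.83% of all sequences, and nothing is read from that count. Their log2 changes ran from -1.09 to 1.75. At 9 DPA 20 members had no aleurone reads. With counts under 3 set at 3, 13 members were over 100-fold higher at 14 than at 9 DPA. The depth of that library limits this: a member with no reads there was set at 0.659 RPM, and its level could have been above or below that.

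In starchy endosperm the members divided by when they rose. At least 4-fold higher at 9 than at 6 DPA were 17 of the 32 with enough reads, against 6.5% of all 64361 sequences considered. Some of the 17, such as TC439225 with 15 and then 261 reads, passed the minimum of reads only through 9 DPA. Their 4-fold rise was fixed by that minimum, so the 17 is a description. At least 4-fold higher at 14 than at 9 DPA were 27 of 40, against 4.51% of 59737. Since 14 DPA high and 6 DPA low levels chose the members, some step had to be large, and only the place of the step is free. By 9 DPA, 19 members had reached at least 10% of their 14 DPA starchy endosperm level, against 3 members in aleurone, each set against its own tissue.

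By RPKM, the first group of 11 members made their 4-fold step in starchy endosperm by 9 DPA and changed less than 4-fold afterwards. Their median starchy endosperm levels were 1.78, 25.6 and 27.5 RPKM at 6, 9 and 14 DPA, and their median aleurone levels were 0.107, 0.388 and 88.0 RPKM. At 9 DPA 10 of these 11 were at least 4-fold lower in aleurone, which is a description, since a high 9 DPA starchy endosperm level formed the group. TC436133 was the most abundant of them. TC428279, 1477 bases long and picked after its values were seen, was the extreme case. It had 0.025, 0 and 28.6 RPKM in aleurone and 0.199, 32.2 and 22.1 RPKM in starchy endosperm, with 0 and 195 reads at 9 DPA. At 14 DPA 96.7% of its aleurone reads and 98.9% of its starchy endosperm reads were unique. It was not detected in 9 DPA aleurone at this depth. Its log2 change between 9 and 14 DPA in starchy endosperm was -0.54 by RPKM and 0.21 with TMM, a scaling described below, so the direction of that step depends on the scaling. The groups depend on it too. TMM raised every 14 to 9 DPA log2 ratio in starchy endosperm by 0.75. With it, 31 of the 40 in place of 27 were at least 4-fold higher at 14 DPA, so some members would change group.

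A second group of 6 members rose at least 4-fold at both steps in starchy endosperm. Their medians there were 1.72, 17.6 and 259.1 RPKM, and in aleurone 0, 0 and 264.6 RPKM. All 6 were at least 4-fold lower in aleurone at 9 DPA, again in a group formed by its 9 DPA starchy endosperm level. TC439225 led this group. TC448746, 1049 bases long and also picked after its values were seen, had reads in every library. It had 2.70, 1.47 and 423.4 RPKM in aleurone and 2.53, 13.9 and 296.4 RPKM in starchy endosperm. Its tissues were alike at 6 and 14 DPA, and at 9 DPA its aleurone to starchy endosperm ratio was 0.105 (0.0406 to 0.231).

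The third group of 21 members rose at least 4-fold after 9 DPA in starchy endosperm and were not counted as risen by 9 DPA. It includes all 8 members with under 20 reads in both 6 and 9 DPA starchy endosperm. For these 8 an earlier rise was not assessed. With no minimum of reads, added after seeing the data, 22 of all 40 members were 4-fold higher at 9 than at 6 DPA, in place of 17. The medians of the 21 were 2.71, 1.93 and 40.9 RPKM in starchy endosperm and 0.132, 0 and 61.9 RPKM in aleurone. Reads at 9 DPA sufficed for a tissue ratio in only 7 of the 21, of which 6 were at least 4-fold lower in aleurone. Those 6 passed the minimum of reads only through starchy endosperm, where they were high, so that count is a description. The rest had under 20 reads in each 9 DPA library, and for most of them the tissues could not be told apart at this depth. TC448501 (718 bases), picked after its values were seen, had no reads in any of the 4 earlier libraries, and at 14 DPA 56.5 RPKM (aleurone) and 63.4 RPKM (starchy endosperm). TC442037 (834 bases), picked likewise, had 0.132, 0.264 and 208.9 RPKM in aleurone and 0.510, 0.292 and 126.0 RPKM in starchy endosperm. Of its reads at 14 DPA, only 19.6% in aleurone and 17.8% in starchy endosperm were unique, so its level is shared with near-identical sequences. TC448501 and TC442037 came late in both tissues. The last 2 members, TC382259 and TC376213, rose in starchy endosperm over both intervals by less than 4-fold in each, by RPKM.

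**Figure D3:**
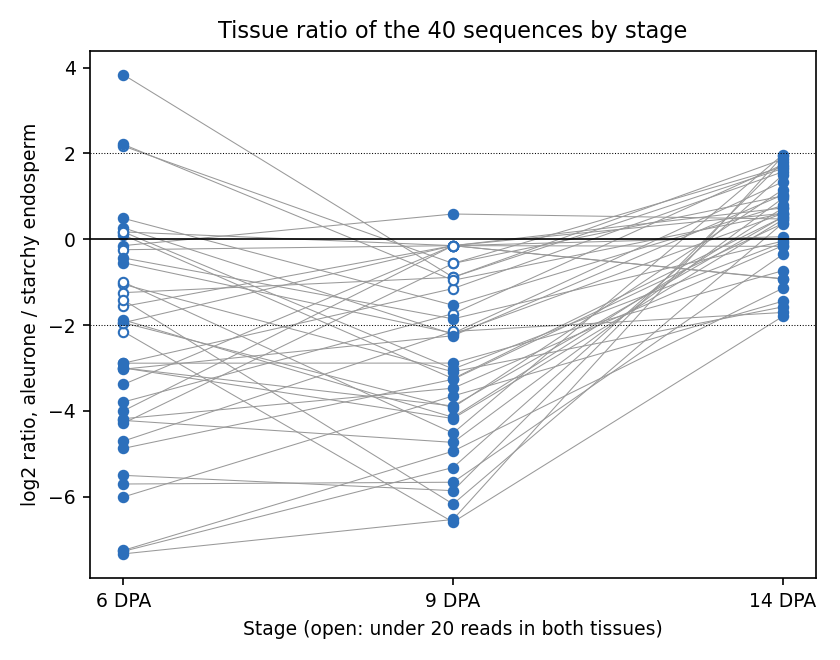
Ratio of aleurone to starchy endosperm (log2; 0 is equal, dotted lines are 4-fold) for the 40 sequences at 6, 9 and 14 DPA, 1 point per sequence with counts under 3 set at 3; open points had under 20 reads in both tissues and carry little information. The 9 DPA points lie between -6.59 and 0.59, with 24 of all 40 under the lower dotted line, and by the rule all 14 DPA points lie between the dotted lines.

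Between 9 and 14 DPA the aleurone to starchy endosperm ratio increased for 36 of the 40, by a median of 2.88 log2 units, with counts under 3 set at 3 throughout. The 14 DPA end of this change is bounded by the rule. By RPKM, 27 members were higher in aleurone at 14 DPA and 13 in starchy endosperm, and the median log2 ratio was 0.56. Scaling by TMM, a method that corrects for a few very abundant sequences taking up a library, lowered every 14 DPA ratio by 0.69, and 17 of the 40 were then higher in aleurone. Which tissue leads at 14 DPA therefore depends on the scaling. The same scaling lowered the 9 DPA ratios by 0.07.

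At 6 DPA the direction was the same as at 9 DPA. RPKM was lower in aleurone for 33 members, higher for 6 and equal for 1. Of the 28 members whose higher 6 DPA library had 20 or more reads, 19 were at least 4-fold lower in aleurone and 2 at least 4-fold higher, against 10.8% lower and 17.2% higher of all 76083 sequences with that many reads. All 19 passed the minimum of reads only through starchy endosperm, and the 2 only through aleurone, in each case the library in which they were high. Most of them thus had to differ, and the counts are no support for a difference. The 6 DPA levels were also capped by the rule in each tissue, and these counts are a description.

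A lower 9 DPA level in aleurone was also common among other sequences that rose in aleurone and were alike at 14 DPA. With no minimum of reads, 77.0% of the 226 that rose 8-fold in aleurone only were at least 4-fold lower in aleurone at 9 DPA, where 60% of the 40 members were. Of the 41 that rose in starchy endosperm only, 9.76% were, and of the 3889 that rose in neither, 10.2% were. The members were lower than the 226 in both tissues. Their median at 6 and 9 DPA was 0.087 and 0.0815 RPKM in aleurone, against 2.77 and 4.46 RPKM for the 226. In starchy endosperm it was 2.0 and 10.5 RPKM, against 38.3 and 39.8 RPKM for the 226. The 6 DPA levels are limited by the rule, low 6 DPA aleurone levels chose both sets, and no test was made between them.

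**Figure D4:**
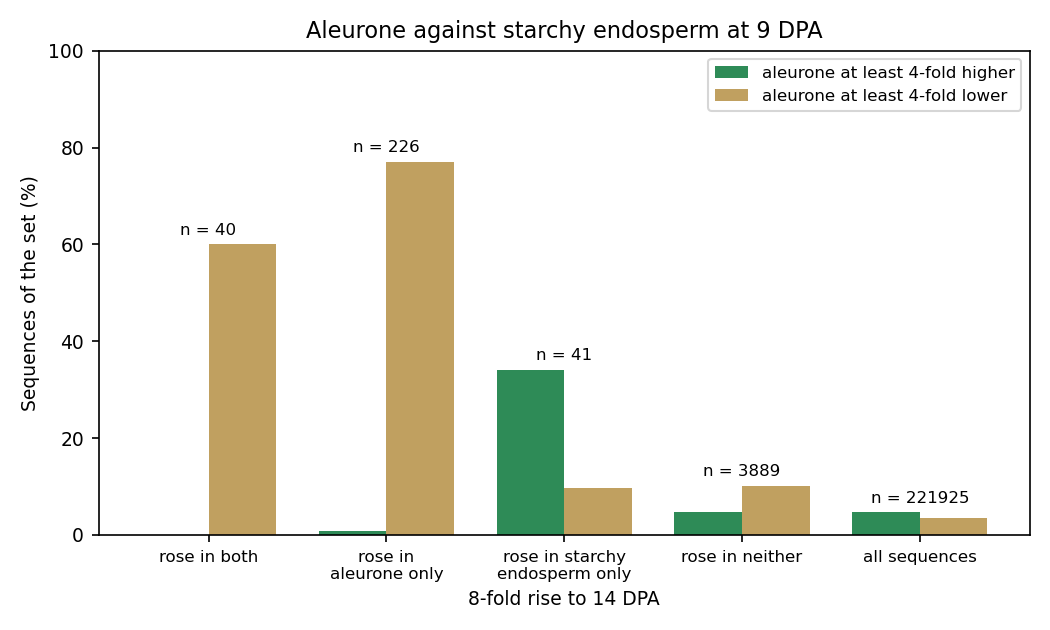
Percent of the sequences of each set that were at least 4-fold higher or at least 4-fold lower in aleurone than in starchy endosperm at 9 DPA, with counts under 3 set at 3 and no minimum of reads, for sequences alike at 14 DPA by where they had risen 8-fold, and for all sequences; n is the size of the set. The 40 members reach 60% lower in aleurone and those that rose in aleurone only reach 77.0%, where those that rose in neither stand at 10.2% and all sequences, most with few reads, at 3.55%.

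Sequences low in aleurone at the earlier stages mostly stayed lower there at 14 DPA. Among 1203 sequences at least 4-fold lower in aleurone at both 6 and 9 DPA, with at least 20 RPKM in 14 DPA starchy endosperm, the median log2 ratio of aleurone to starchy endosperm at 14 DPA was -3.39 (quartiles -4.84 and -1.15). Of these, 402 had a 14 DPA aleurone level of at least 0.25 of the starchy endosperm level, as the rule asks of members, and 13 of the 402 were members. Among the 402, 42.0% were higher in aleurone at 14 DPA by RPKM. The 1203 were chosen on a high 14 DPA starchy endosperm level with no demand on aleurone, which favours a low ratio. Any part of starchy endosperm RNA in the aleurone preparations was not tested.

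A model of tissue and stage over all libraries set the members' changes against a modelled spread. It was edgeR's quasi-likelihood test over 75040 sequences with Benjamini-Hochberg adjustment, of which 38 were members. The spread in this model is the disagreement of the tissues on the stage change, with 2 residual degrees of freedom. A further 6.68 degrees of freedom were drawn from all tested sequences, and no replicate entered the spread. No member (0) was called for 9 against 6 DPA, or for 14 against 9 DPA. An unadjusted p under 0.05 was reached by 8 of 38 and by 35 of 38 members in these contrasts, all higher at the later stage. The rule fixed low 6 DPA and high 14 DPA levels in both tissues, and 15 of the 38 members passed the read filter only with the help of a 14 DPA library, so these counts are a description and support nothing. Over all sequences the shares called higher were 0% in each of these contrasts, and the unadjusted threshold was passed by 9.03% and 14.2% in either direction. With DESeq2 (Wald test), 4 and 34 members were called, against 1.21% and 3.07% of all sequences called higher. Leaving out 14 DPA aleurone, edgeR called 3 and 8 of the 23 members tested, against 1.01% and 1.19% of all sequences. Leaving out 14 DPA starchy endosperm, it called 3 and 21, against 1.09% and 4.68%. For TC439225, 14 against 9 DPA gave a log2 change of 7.17 (SE 1.86) at an edgeR adjusted p of 0.178. The contrast of 14 against 6 DPA, which the rule used, called 14 of 38 members higher at 14 DPA against 0.584% of all sequences, and nothing is read from it. Its count was 1 without 6 DPA aleurone, 0 without 6 DPA starchy endosperm or either 9 DPA library, 21 when 14 DPA aleurone was left out and 23 when 14 DPA starchy endosperm was.

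Averaged over the stages, edgeR called 1 of 38 members lower in aleurone, against 2.71% of all sequences, a share close to the background. An unadjusted p under 0.05 was reached by 15 of 38 members (39.5%), all lower in aleurone, against 19.2% of all sequences in either direction. This count was 9 of 38 with library totals in place of TMM, and 7 of 33 on unique reads. Without 9 DPA starchy endosperm it was 3 of 34, and with no filter on low counts it was 25 of 40. It is a description and supports nothing. The model averages a 9 DPA difference with the 14 DPA likeness that the rule requires. The member called was CJ548441 (720 bases), at a log2 ratio of -3.78 (SE 0.85, adjusted p = 0.0341 in edgeR). It had 0.153, 0 and 25.2 RPKM in aleurone and 4.0, 4.06 and 82.1 RPKM in starchy endosperm. At 14 DPA only 4.95% of its aleurone reads and 8.16% of its starchy endosperm reads were unique, and its value is uncertain for that reason. The call was lost without any of the 4 libraries of 6 and 9 DPA, where 0 members were called. Without 14 DPA aleurone, 17 of 23 members were called lower in aleurone, against 6.07% of all sequences. Without 14 DPA starchy endosperm, 17 of 23 were as well, against 5.81%. At 6 and 9 DPA most of the 23 passed the read filter only through starchy endosperm. The direction of the 17 was thus largely fixed by the filter, and the counts support nothing.

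The members were also described by properties that the rule did not use. Of the 40, 32 carried TC identifiers (80.0%), against 84.4% of the 4156 other sequences alike at 14 DPA and 42.1% of all sequences. Their lengths ran from 456 to 1477 bases with a median of 731.5, against medians of 847 for the other sequences alike at 14 DPA and 644 for all. At 14 DPA their median share of unique reads was 53.8% (aleurone) and 52.9% (starchy endosperm), against 46.2% and 47.3% for the other sequences alike at that stage. The range among members was wide, from 3.68% to 96.7% in aleurone, and 7 members had under 20% unique reads over the 14 DPA libraries together. Whether members stand for the same gene was not tested. On unique reads alone, 39 of the 40 still differed 8-fold between 6 and 14 DPA in both tissues, and 33 had the lower 9 DPA level in aleurone.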

How the data were processed

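RNA-seq was analysed from 6 libraries, 1 for each tissue and stage. Per the labels' protocols, total RNA was amplified with a modified primer whose restriction site served to take off poly(A) tails, libraries had 15 PCR cycles and reads came from a Genome Analyzer IIx. Not given in the sources used here: aligner, settings, sequence set version and how shared reads were assigned. The authors deposited total and unique read counts per transcript sequence, sequence lengths (another measure) and RPKM values. The RPKM deposited by the authors equals total counts scaled by length and file total. A transformed score, deposited by the authors for the 6 DPA files, was not used.

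The members and all choices were made with earlier results of these data known. Members were found on deposited RPKM. Pairs of libraries were compared on RPKM with counts under 3 set at 3, at least 20 reads in the higher library and 4-fold as a change. The edgeR 4.0.16 test (R 4.3.3, TMM, tissue and stage as factors) used total counts and kept a sequence when 3 libraries or more had 10 reads or more. Adjusted p-values under 0.05 were called, and the tests were checked on simulated data. DESeq2 1.42.0, other scalings, unique reads, equal depth and leaving out each library were alternatives. Named members were the 2 highest at 14 DPA, the 2 highest of each timing class that had members, and the most extreme 9 DPA tissue ratio in each direction; others are marked as picked after their values were seen. CJ548441, TC376213, CA704986, TC390790 and TC448582 were also named after their values were seen.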

Additional observations from a re-analysis of the deposited data

Results flagged for a closer look

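Members that moved in opposite directions in the tissues were picked out, and the difference was not tested, since each tissue and stage had 1 library. Between 9 and 14 DPA, 2 members were higher at 14 DPA in aleurone and lower in starchy endosperm, TC428279 and CA704986. TC428279 changed by 6.00 log2 units in aleurone with its 0 reads at 9 DPA set at 3 (lower 95% limit of the ratio 52.05). In starchy endosperm it changed by -0.54, with 95% limits of 0.590 to 0.803 on the ratio. CA704986 (456 bases) changed by 4.64 in aleurone with its 0 reads at 9 DPA set at 3 (lower limit of the ratio 20.17). In starchy endosperm it changed by -0.24, with limits of 0.627 to 1.17 that include no change. Of its 48 reads in 9 DPA starchy endosperm, 11 were unique. With TMM, 0 members moved in opposite directions at this step, as all 14 to 9 DPA log2 ratios in starchy endosperm went up by 0.75.

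Between 6 and 9 DPA, 2 of the 6 members with enough reads in both tissues were lower at 9 DPA in aleurone and higher in starchy endosperm, TC376213 and TC448746. For both, the limits of the 9 to 6 DPA ratio in aleurone include no change, at 0.669 to 1.32 for TC376213 and 0.211 to 1.17 for TC448746. In starchy endosperm the ratios were 3.87 (3.04 to 4.89) and 5.52 (3.89 to 7.80). TMM gave the same 2 members. At 14 DPA only 6.22% of the aleurone reads and 6.57% of the starchy endosperm reads of TC376213 were unique, so its values are uncertain.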

How the results depend on the processing

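The count of 40 members depends on the limits of the rule: it was 70 with TMM (36 of the 40 among them), 22 with a minimum of 40 RPKM, 91 with a 4-fold and 25 with a 16-fold rise, and 22 with a 2-fold window between tissues. Unique reads gave 50, of which 30 were shared, and a minimum of 10 RPKM gave 60. At 9 DPA, 23 of 26 members with 20 reads were 4-fold lower in aleurone, also with TMM and at equal depth (all libraries thinned to 4104682 reads), 13 of 14 considered on unique reads and 12 of 15 with a minimum of 50 reads and 24 of 40 with none, added after seeing the data; 0 were 4-fold higher in aleurone under the 7 alternatives tried. For 9 against 6 DPA, the starchy endosperm count of 17 was 10 with 8-fold and 10 with 50 reads as the minimum. The aleurone count of 0 was 2 with 2-fold, and 26 with no minimum of reads, added after seeing the data, because 3 reads weigh more in the shallow library. The counts for 14 against 9 DPA stayed within 1.5 times.

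The edgeR counts of members were unstable. For 9 against 6 DPA the count of 0 was 6 with no filter and 4 with DESeq2, and 0 to 3 with a library left out. For 14 against 9 DPA it was 38 with no filter and 34 with DESeq2, and 0 to 21 with a library left out, the 21 without 14 DPA starchy endosperm and 8 without 14 DPA aleurone. For the tissues the count of 1 was 0 with library totals, 2 on unique reads, 17 with no filter and 17 with DESeq2, and 0 to 17 with a library left out. For 14 against 6 DPA the count of 14 was 40 with no filter and 37 with DESeq2, and 0 to 23 with a library left out. Only 23 members passed the filter without either 14 DPA library. The cause was not tested. No paired analysis was possible because the labels give no replicate numbers beyond 1 library per group; stage pairs the tissues in the model.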
